A study of Mus musculus with 50 samples.

Results

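Igfbp3 and Igfbp7 encode secreted insulin-like growth factor binding proteins, and they are 2 of the 1000 gene targets imaged in sections of mouse liver from this study. Both were followed here across the mesenchymal, endothelial and biliary cells of control and HIRA KO livers. They were picked with their counts per cell type and genotype already known, so those levels are described below without a test, and tests were kept for their position in the tissue, their place within cells and the other genes of the pathway. Igfbp3 gave 5663 transcripts in all and ranked 477 of 1000 targets, and Igfbp7 gave 32030 and ranked 17. The highest of the 10 negative probes, which match no mouse transcript, gave 4364.

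HIRA is a chaperone that places histone H3.3 into chromatin. HIRA KO livers came from HIRA fl/fl C57BL/6 mice and control livers from wild-type C57BL/6 mice, and AAV8-TBG-Cre was given to both groups at an age of 6 months, with livers collected 12 months later, at 18 months. The TBG promoter drives Cre in hepatocytes and not in stromal or vascular cells. A cell descended from a recombined hepatocyte would carry the deletion whatever its later type, and since the tables hold no lineage mark, the origin of cholangiocyte-like cells cannot be told from them. The panel held no Hira target, and the deletion could not be checked from these transcripts. The 50 fields of view formed 6 tissue areas on 1 slide, 3 per genotype, and the area was taken as the replicate because the labels name no mouse. The control areas all sat on the same side of the slide and the HIRA KO areas on the opposite side, so genotype and side of the slide cannot be told apart, whereas each slide row held 1 area of each genotype.

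Insulin-like growth factors circulate and act bound to binding proteins, which lengthen their life in fluid and keep them from or deliver them to their receptors. Igfbp3 encodes the main carrier of Igf1 in blood, and in the liver it is made by cells other than hepatocytes. Igfbp7 encodes a relative with weak affinity for these growth factors that is laid down in vessel basement membranes, where it binds Cd93 on endothelial cells and collagen IV, and it is also known as a protein secreted by senescent cells. On the mouse genome (GRCm38, GENCODE vM21) Igfbp3 (ENSMUSG00000020427) lies on the minus strand of chromosome 11 from 7206086 to 7213923, with up to 5 exons. Igfbp1, a further family member that was not on the panel, ends 3539 bases before it. Igfbp7 (ENSMUSG00000036256) lies on the minus strand of chromosome 5 from 77349240 to 77408041, with up to 6 exons.

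Of 52132 segmented cells, 49665 were kept. The areas held 718991 to 1066387 counts in controls and 1292256 to 1542205 in HIRA KO, with medians of 88 to 134 and 104 to 147 counts per cell. Counts per 1000 square pixels of cell area were 6.17 to 8.62 in controls and 10.3 to 11.2 in HIRA KO, so levels are given as CPM, the counts of a gene relative to all counts of the same cells. Cells were clustered without the genes of the insulin-like growth factor axis, and clusters were named from marker genes. The stellate and fibroblast markers summed to 54904 ± 8052 CPM in stellate-like cells of control areas and to 12981 ± 569 in endothelial-like cells (SD, n = 3). Endothelial markers summed to 33504 ± 4124 CPM in endothelial-like cells and 11961 ± 1007 in stellate-like cells, and cholangiocyte markers to 73540 ± 13096 CPM in cholangiocyte-like cells and 8830 ± 37.4 in endothelial-like cells. Hepatocyte markers were the largest signal from another cell type. They summed to 41819 ± 1287 CPM in endothelial-like cells of control areas and 60991 ± 9435 in those of HIRA KO areas, above the endothelial markers of the same cells (33504 and 32706). In stellate-like cells they reached 44504 ± 4303 and 58542 ± 6554 CPM, in HIRA KO above the cells' own markers (55490 ± 5596). Hepatocyte-like cells themselves held 95997 ± 6206 and 149813 ± 14990 CPM. The part of these neighbouring transcripts in the levels of Igfbp3 and Igfbp7 was not tested.

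Igfbp3 was highest in mesenchymal cells. The stellate-like class was named from markers of stellate cells, the pericytes that store vitamin A, and of fibroblasts, which lay down collagen. In these cells Igfbp3 reached 2120, 2108 and 2122 CPM in control areas and 1714, 1917 and 2273 CPM in HIRA KO areas. This was 5.35 times the mean negative probe in the same cells, and the range over the 6 areas did not overlap that of any of the 7 classes compared with it. Myofibroblast-like cells, made up of the contractile clusters described below, followed with 1080 ± 279 CPM, then Kupffer-like macrophages with 762 ± 106 CPM, cholangiocyte-like cells with 733 ± 223, monocyte/dendritic-like cells with 719 ± 238, endothelial-like cells with 629 ± 114, hepatocyte-like cells with 610 ± 53.6 and T/NK-like cells with 543 ± 189 (SD, n = 6). From myofibroblast-like cells downwards the ranges of all neighbours in this order overlapped. B-lineage-like cells, with as few as 8 cells in an area, were left out of the order (1151 ± 613 CPM). Endothelial-like and hepatocyte-like cells stood only 1.59 and 1.29 times above the negative probe, so that at this depth Igfbp3 in these cells was close to background.

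Within the mesenchymal cells Igfbp3 was similarly high in clusters with different leading genes. It reached 2052 ± 165 CPM in the stellate-like cluster led by Dcn and Cxcl12, 2159 ± 869 in the fibroblast-type cluster led by Gsn, Col1a1 and Col3a1, and 2169 ± 632 in 194 contractile cells led by Acta2 and Tagln. A larger cluster led by Myh11 and Tagln, which also held the hepatocyte gene Gc among its leading genes, had 903 ± 184 CPM. Among endothelial-like cells the cluster led by Kdr, Eng and Bmp2 had 577 ± 160 CPM and the cluster led by Fabp4 and Vwf, a marker of larger vessels, had 982 ± 374 CPM. The ranges of these endothelial-like clusters overlapped (346 to 786 and 495 to 1602 CPM).

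Igfbp7 was shared by mesenchymal and endothelial cells. Stellate-like cells held 9877 ± 2189 CPM (6588 to 12297) and endothelial-like cells 9581 ± 2212 CPM (7765 to 13288), and stellate-like cells were the higher of the pair in 3 of 6 areas. Cholangiocyte-like cells, the epithelium of the bile ducts, came next with 5256 ± 1351 CPM, below endothelial-like cells in 6 of 6 areas with no overlap of the ranges. Monocyte/dendritic-like (4712 ± 923), Kupffer-like (4175 ± 736) and T/NK-like cells (3798 ± 634), with myofibroblast-like cells (4370 ± 502) between the first of these and Kupffer-like cells, overlapped their neighbours in the order, and hepatocyte-like cells had the lowest level, 2236 ± 422 CPM, with no overlap with T/NK-like cells.

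The endothelial-like clusters differed for Igfbp7. Their order was the reverse of that of the Igfbp3 means, which overlapped in range and rest on 289 and 75 counts in all. The Kdr, Eng and Bmp2 cluster, genes of the sinusoidal lining among others, had 10193 ± 2284 CPM, whereas the Fabp4 and Vwf cluster had 5488 ± 1177 CPM, with no overlap. Contractile cells led by Acta2 had the highest mean of the clusters compared here, 12031 ± 2019 CPM, and the Myh11 and Tagln cluster 3256 ± 435 CPM. The Acta2-led cells numbered only 12 to 55 per area, with 276 Igfbp7 and 51 Igfbp3 counts in all. The stellate-like clusters led by Dcn and by Gsn were alike at 9933 ± 1883 and 9300 ± 3274 CPM.

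**Figure D1:**
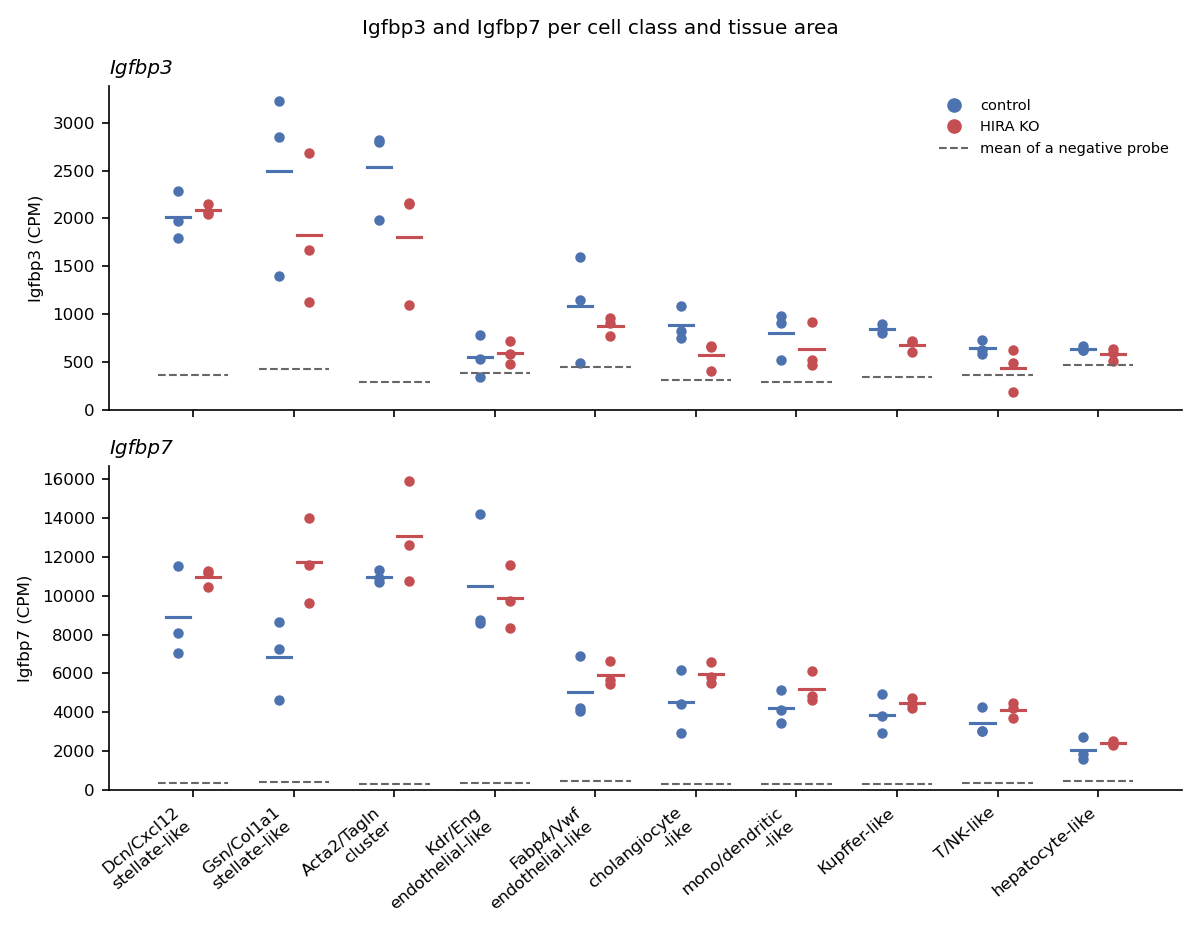
Levels of Igfbp3 (top) and Igfbp7 (bottom) in CPM for each tissue area, by cell class or cluster; points are areas, horizontal bars the mean of 3 areas and dashed lines the mean negative probe. Igfbp3 stands well above the dashed line in the mesenchymal clusters on the left and close to it in Kdr/Eng endothelial-like and hepatocyte-like cells, whereas Igfbp7 is high in mesenchymal and in Kdr/Eng endothelial-like cells.

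Shares of transcripts depend on class size and on background as well as on level, and the cells with the highest level did not hold all of the transcripts. Stellate-like cells held 23.1% of the Igfbp3 transcripts in cells and hepatocyte-like cells 29.9%, against 7.14% in endothelial-like and 4.60% in cholangiocyte-like cells (means of 6 areas). The hepatocyte-like transcripts stood only 1.29 times above the mean negative probe, so that most of this share lay at background level. For Igfbp7 stellate-like, hepatocyte-like and endothelial-like cells held 20.2%, 20.1% and 19.9%. The endothelial-like share of Igfbp7 was 22.1%, 25.8% and 27.4% in control areas and 12.2%, 13.6% and 18.5% in HIRA KO areas. These shares also move with the number of cells of each class, and endothelial-like cells made up 13.7% to 15.7% of cells in control areas and 9.32% to 12.1% in HIRA KO areas.

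Most single cells carried few copies. A count of Igfbp3 was found in 16.5% ± 1.52 of stellate-like cells, 7.76% ± 1.89 of cholangiocyte-like and 5.12% ± 1.34 of endothelial-like cells, and a count of Igfbp7 in 54.0% ± 8.12, 36.6% ± 6.71 and 49.7% ± 6.68. When each cell was thinned to 50 counts, Igfbp3 was found in 8.45% of stellate-like, 3.41% of cholangiocyte-like, 2.37% of endothelial-like and 2.74% of hepatocyte-like cells. At 100 counts the endothelial-like and hepatocyte-like shares were 5.74% and 5.60%. The order of the endothelial-like and hepatocyte-like shares thus turned with the depth chosen. For Igfbp7 the thinned shares were 37.8%, 21.7%, 35.8% and 10.5% in the same order. In stellate-like cells thinned to 50 counts Igfbp7 was found in 38.7% ± 9.52 of cells with Igfbp3 and in 37.7% ± 6.33 of cells without it. At 100 counts these shares were 60.0% ± 8.89 and 54.3% ± 7.38. The shares of an area form a pair, and their difference within areas was not tested. The highest number in a single cell was 10 for Igfbp3 and 21 for Igfbp7, both in stellate-like cells, and 200 of the 531 cells with at least 5 Igfbp7 counts were stellate-like.

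The genes with the most similar pattern over 48 sums of class and area (8 classes, 734 genes ranked) were taken for each. For Igfbp3 they were Bmp5, a bone morphogenetic protein (Pearson's r = 0.76), Pdgfrb, the receptor that marks pericytes (0.76), the chemokine gene Cxcl12 (0.74), the actin regulator gene Gsn (0.74) and the collagen gene Col14a1 (0.72). For Igfbp7 they were Serpinh1, a collagen chaperone (0.75), the proteoglycan gene Bgn (0.74), the basement membrane collagen gene Col4a1 (0.72), the endothelial coreceptor gene Eng (0.71) and the cytokine receptor gene Il6st (0.70). Igfbp3 and Igfbp7 themselves were related at r = 0.41, rank 58 in the list for Igfbp3 and 73 in that for Igfbp7. These sums share areas, depth and spill from neighbours, and some of these genes are markers that named the classes. Only 1 of the 5 genes for Igfbp3 and 2 of the 5 for Igfbp7 were among the 5 highest by Spearman's rho as well.

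How the binding proteins compared between HIRA KO and control livers was then described per class, on CPM scaled by the trimmed mean of M values (TMM). In stellate-like cells Igfbp3 was 2081, 1997 and 2156 in control areas 1, 2 and 3 and 1705, 1913 and 2424 in HIRA KO areas 1, 2 and 3, a log2 difference of −0.060 ± 0.15 (SE, on log2(CPM + 10)). The groups overlapped, with the lowest and the highest area both in HIRA KO. The direction turned with classes by marker score (0.16) and per square pixel of cell area (0.47). Igfbp7 in stellate-like cells was 7759, 6241 and 11216 in control and 10104, 12269 and 12028 in HIRA KO areas, a difference of 0.49 ± 0.26. Each HIRA KO area was above the control area of its slide row, yet control area 3 lay above HIRA KO area 1. The share of all genes with this order within slide rows was not computed, so the order alone is not a result about Igfbp7. Per square pixel of cell area the Igfbp7 difference was 1.02. Hepatocyte markers in the same cells had a higher sum in HIRA KO as given above, with 8 of the 12 on the panel higher. The part of hepatocyte transcripts in the Igfbp7 values was not tested.

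The fibroblast-type cells were described apart. In the cluster led by Gsn, Col1a1 and Col3a1, Igfbp7 was 6975, 4473 and 8720 in control and 9660, 14278 and 12186 in HIRA KO areas, a log2 difference of 0.87 ± 0.33. All HIRA KO areas were above all control areas here, as they were for 6.82% of the 763 genes compared in this cluster, so the separation alone is not a result about Igfbp7. In the Dcn and Cxcl12 cluster Igfbp7 differed by 0.37 ± 0.25 and Igfbp3 by 0.097 ± 0.10, both with overlap (6.61% of genes there were separated upwards and 6.51% downwards). Igfbp3 in the Gsn-led cluster spread widely in both groups, 3106, 1350 and 2868 against 1126, 1702 and 2817, with a difference of −0.38 ± 0.54.

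In endothelial-like cells the groups overlapped for both genes. Igfbp7 was 7842, 7750 and 13560 in control and 7585, 9078 and 12062 in HIRA KO areas, a log2 difference of 0.0037 ± 0.33. Within each genotype the area in the slide row of area 3 was the highest. Igfbp3 was 455, 724 and 682 in control and 714, 634 and 561 in HIRA KO areas, a difference of 0.058 ± 0.23 from 43 or more counts per area. In the Kdr, Eng and Bmp2 cluster alone both genes overlapped as well, by 0.19 ± 0.35 for Igfbp3 and −0.024 ± 0.32 for Igfbp7, where 5.11% of genes were separated downwards and 5.71% upwards.

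In cholangiocyte-like cells Igfbp3 was 1051, 709 and 858 in control and 657, 640 and 451 in HIRA KO areas, a log2 difference of −0.58 ± 0.24. The HIRA KO areas were all below the control areas, as for 4.75% of the 990 genes compared in these cells. The values rest on 12 to 71 counts per area, and with cells classed by marker score the difference was 0.024. Igfbp7 in cholangiocyte-like cells was 4287, 2782 and 6465 in control and 5760, 6402 and 6056 in HIRA KO areas, with overlap and a difference of 0.51 ± 0.35. Stellate markers in these duct cells summed to 15237 ± 3023 CPM in control and 17612 ± 2432 in HIRA KO areas. The ranges of these sums overlapped (11839 to 17629 and 14962 to 19743 CPM). Of the 16 stellate markers on the panel 12 had a higher mean in HIRA KO, and none was at 0. Endothelial markers in the same cells summed to 8600 ± 408 CPM in control and 7954 ± 525 in HIRA KO areas, with 4 of 13 higher in HIRA KO. The part of either cell type in the Igfbp7 values was not tested.

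**Figure D2:**
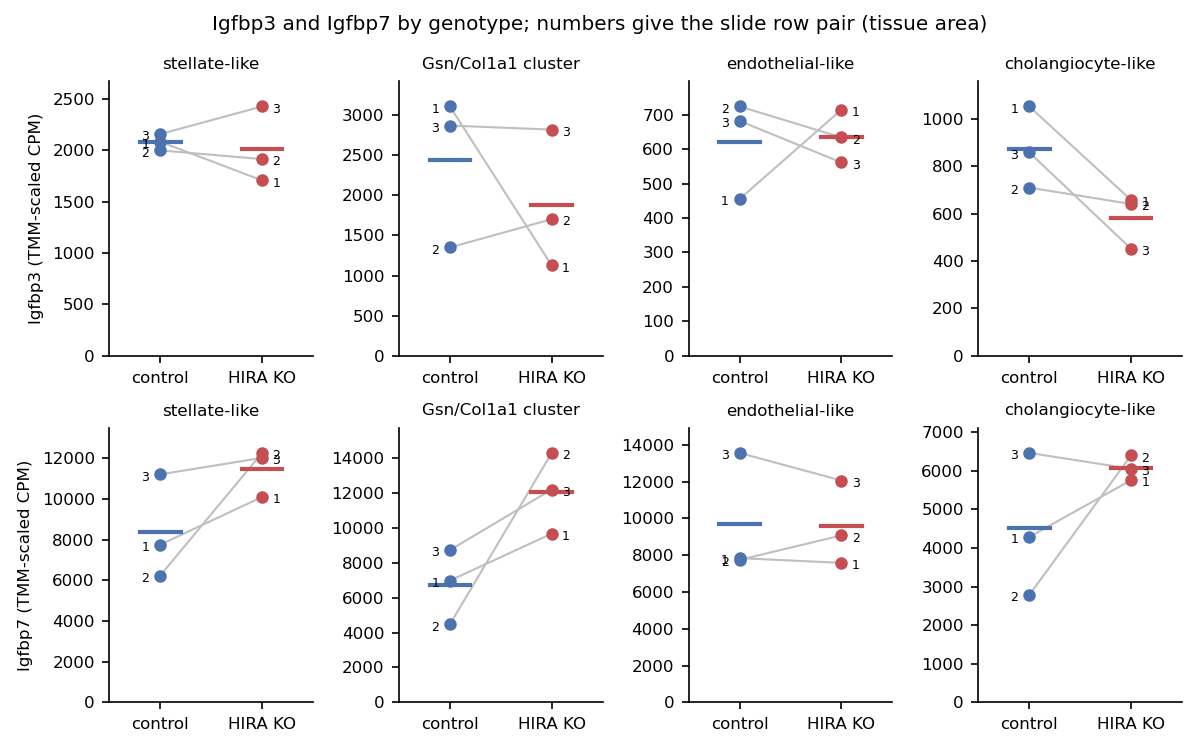
TMM-scaled CPM of Igfbp3 (top) and Igfbp7 (bottom) in 4 sets of cells by genotype; points are tissue areas, lines join areas of the same slide row and bars are means of 3 areas. HIRA KO areas separate upwards for Igfbp7 in the Gsn/Col1a1 cluster and downwards for Igfbp3 in cholangiocyte-like cells, and the groups overlap in the other panels.

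Across the 8 classes with enough cells in every area, Igfbp3 was below all control areas in the HIRA KO areas in 3 (cholangiocyte-like, Kupffer-like and myofibroblast-like cells, log2 differences of −0.58, −0.25 and −0.56) and overlapped in the other 5, and Igfbp7 overlapped in all 8. The share of all genes with this downward separation was 4.51% in Kupffer-like and 4.64% in myofibroblast-like cells, and in the classes with overlap 4.51% in endothelial-like, 5.36% in T/NK-like, 5.61% in stellate-like, 6.62% in monocyte/dendritic-like and 8.32% in hepatocyte-like cells. Upward separation was found for 4.71% of genes in monocyte/dendritic-like, 4.86% in myofibroblast-like, 5.76% in cholangiocyte-like, 5.81% in T/NK-like, 6.01% in Kupffer-like, 6.41% in stellate-like, 6.61% in endothelial-like and 9.52% in hepatocyte-like cells. Over all cells together both genes overlapped, with log2 differences of −0.091 ± 0.15 for Igfbp3 and 0.29 ± 0.32 for Igfbp7, where 7.72% of genes were separated downwards and 6.61% upwards.

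Within the control group Igfbp7 differed by area. Control area 3 had the highest control value in 7 of 8 classes and control area 2 the lowest in 6 of 8. In the slide row of area 2 the HIRA KO area was the higher in 8 of 8 classes, in that of area 1 in 6 and in that of area 3 in 2. The classes of an area come from the same section and are not replicates. The share of all genes with such orders was not computed, so these counts alone are not a result about Igfbp7.

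The same order of areas was seen in the single fields of view. Over all cells Igfbp7 ranged from 5201 to 7030 CPM in the 8 fields of control area 3, with a median of 5765. Those of control area 2 lay between 2372 and 3674 with a median of 2972, and the 9 fields of control area 1 between 2412 and 4834 with a median of 4025. No field of control area 3 overlapped those of the other control areas, whereas the 25 HIRA KO fields ranged from 2449 to 7000 with a median of 4406. In stellate-like cells the median over fields was 7688 CPM (3139 to 14541) in control and 10671 (7184 to 14557) in HIRA KO. For Igfbp3 these medians were 1988 (710 to 4120) and 2005 CPM (921 to 3678). Fields of an area share a tissue section and are not replicates.

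**Figure D3:**
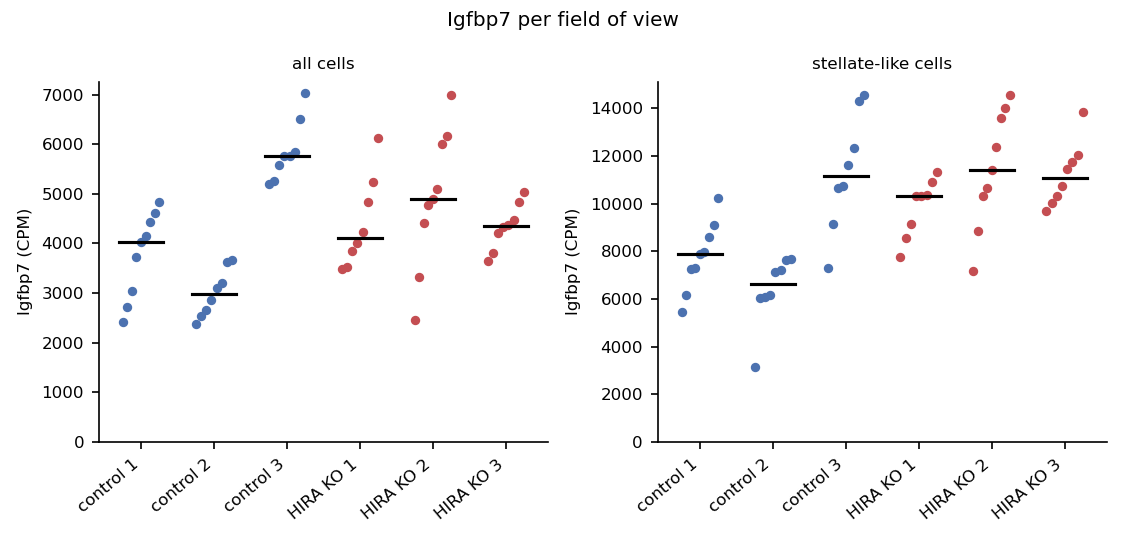
Igfbp7 in CPM for each field of view, in all cells (left) and in stellate-like cells (right), grouped by tissue area; bars are medians of the fields of an area. The fields of control area 3 sit between 5201 and 7030 over all cells, above every field of control areas 1 and 2.

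Whether the binding proteins follow the axis from portal tract to central vein was tested by distance, which did not enter the choice of genes. Cholangiocyte-like cells were taken to stand for portal tracts, where bile ducts run, and the hepatocyte-like cluster led by Glul, the glutamine synthetase of pericentral hepatocytes, for central veins. The study reports more cholangiocytes in HIRA KO livers, some of them derived from hepatocytes, so the landmark need not mark portal tracts there. Near cells (within 500 pixels of the landmark) and far cells (beyond 1500 pixels) were compared within areas that held at least 20 of each, with edgeR's quasi-likelihood test and the area as a block. The pixel size is not given in the sources used here.

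In stellate-like cells of control areas 1, 2 and 3 and HIRA KO area 3, Igfbp3 was 2981, 2783, 3050 and 2275 CPM near the ducts and 668, 1765, 2299 and 2204 far from them. It was higher near in 4 of 4 areas, by 0.54 ± 0.19 on the log2 scale, with an adjusted p of 0.374 by edgeR over 646 genes (unadjusted p = 0.00522), and the lowest far value rests on 3 counts. With cells of at least 50 counts the difference was 0.84 with an adjusted p of 0.0232 by edgeR. Igfbp7 was 8534, 8492, 11878 and 12253 CPM near and 6232, 5926, 10685 and 12814 far, a difference of 0.20 ± 0.11 (edgeR, adjusted p = 0.704) with 3 of 4 areas higher near.

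Other genes did pass in this comparison. Called were 0.619% of genes as higher and 0.31% as lower near ducts, among them Dpt, a matrix protein of fibroblasts (log2 1.28, edgeR adjusted p = 7.2e-05), Gsn (0.98, 2.9e-09) and Clu (0.84, 0.0029), which also leads the cholangiocyte-like cluster, all higher, and the hepatocyte apolipoprotein gene Apoc1 (−0.43, 0.032), which was lower. The Gsn-led cluster made up 35.6% of near and 19.6% of far stellate-like cells.

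When the nearest and the farthest quartile of the stellate-like cells of each area were compared, all 6 areas could be used. The quartiles were cut within each area, so their distances in pixels differed between areas. Igfbp7 was higher in the near quartile in 5 of 6 areas, by 0.31 ± 0.082 with an adjusted p of 0.0152 by edgeR, one of the 1.3% of 847 genes called higher. Igfbp3 was higher by 0.45 ± 0.15 in 4 of 6 areas, with an adjusted p of 0.0892 by edgeR. At 250 against 500 to 1000 pixels, a comparison added after the values were seen, the differences were 0.25 ± 0.085 for Igfbp7, higher near in 6 of 6 areas, and 0.49 ± 0.16 for Igfbp3, with adjusted p-values of 0.119 and 0.0966 by edgeR.

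The fall of Igfbp3 from the ducts outwards was then described by genotype. Within 250 pixels of a cholangiocyte-like cell stellate-like cells held 3483, 3555 and 3171 CPM of Igfbp3 in control areas 1, 2 and 3 and 1577, 2006 and 2140 CPM in HIRA KO areas. On the TMM-scaled values the HIRA KO areas were all below the control areas, as for 3.82% of the 786 genes compared in these cells, so the separation alone is not a result about Igfbp3. Igfbp7 overlapped there, where 6.11% of genes were separated upwards. At 500 to 1000 pixels the values were 1486, 2205 and 1537 CPM in control and 1722, 1779 and 2478 CPM in HIRA KO areas. The fall from near to far was thus seen in all 3 control areas (log2 near minus far of 0.71 to 1.21, mean 1.0) and not in the HIRA KO areas (−0.21 to 0.19, mean −0.049). For 4.63% of 863 genes the differences of all HIRA KO areas likewise lay below those of all control areas. These values rest on 24 to 204 Igfbp3 counts per area and side.

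The difference between the genotypes in this fall did not pass correction. At 500 against 1500 pixels, where only 1 HIRA KO area had cells on both sides, it was −0.64 ± 0.40 (edgeR interaction, adjusted p = 0.958). With quartiles it was −1.15 ± 0.29 (p = 7.8e-05, edgeR adjusted p = 0.0657 over 847 genes). Control areas stood at 0.67 to 1.66 and HIRA KO areas at −0.23 to 0.19, a separation found for 5.19% of genes. With 250 against 500 to 1000 pixels the difference between the genotypes was −1.08 ± 0.32 (p = 0.00067, edgeR adjusted p = 0.193). No gene was called by the interaction in any of these 3 fits in stellate-like cells, and 40, 45 and 35 genes had an unadjusted p under 0.05. The quartile and the 250 pixel fits of the interaction were added after the values were seen. Both genes were also picked with their levels by genotype known, so the p-values of the interaction are not independent of that choice. The quartiles also set unlike distances against each other. In HIRA KO area 2, 900 stellate-like cells lay within 250 pixels of a cholangiocyte-like cell and 118 at 500 to 1000 pixels. In control area 2 these numbers were 69 and 126, with a further 119 cells at 1500 to 2500 pixels. The part of this in the quartile interaction was not tested. For Igfbp7 the interaction was −0.38, −0.046 and −0.099 with adjusted p-values of 0.958, 0.957 and 0.951 by edgeR.

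Described by genotype alone, stellate-like cells within 500 pixels of a cholangiocyte-like cell held 2934, 2775 and 3100 TMM-scaled CPM of Igfbp3 in control and 1569, 1918 and 2303 in HIRA KO areas, a log2 difference of −0.62 ± 0.17. The HIRA KO areas were all below the control areas, as for 5.68% of the 986 genes compared. Igfbp7 in these cells overlapped, 8400, 8467 and 12074 against 10322, 12338 and 12404, with a difference of 0.29 ± 0.19 (6.59% of genes were separated upwards). In endothelial-like cells within the same distance both genes overlapped, by −0.11 ± 0.16 and 0.0065 ± 0.34, where 4.9% of genes were separated downwards and 5.31% upwards. The landmark itself differed between areas. Cholangiocyte-like cells numbered 505, 132 and 306 in control and 768, 857 and 242 in HIRA KO areas, and the stellate-like cells within 250 pixels numbered 289, 69 and 159 against 595, 900 and 109. The Gsn-led cluster made up 41.5% to 49.3% of these near cells in control and 38.5% to 44.4% in HIRA KO areas. The part of duct cell number in the Igfbp3 values was not tested.

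**Figure D4:**
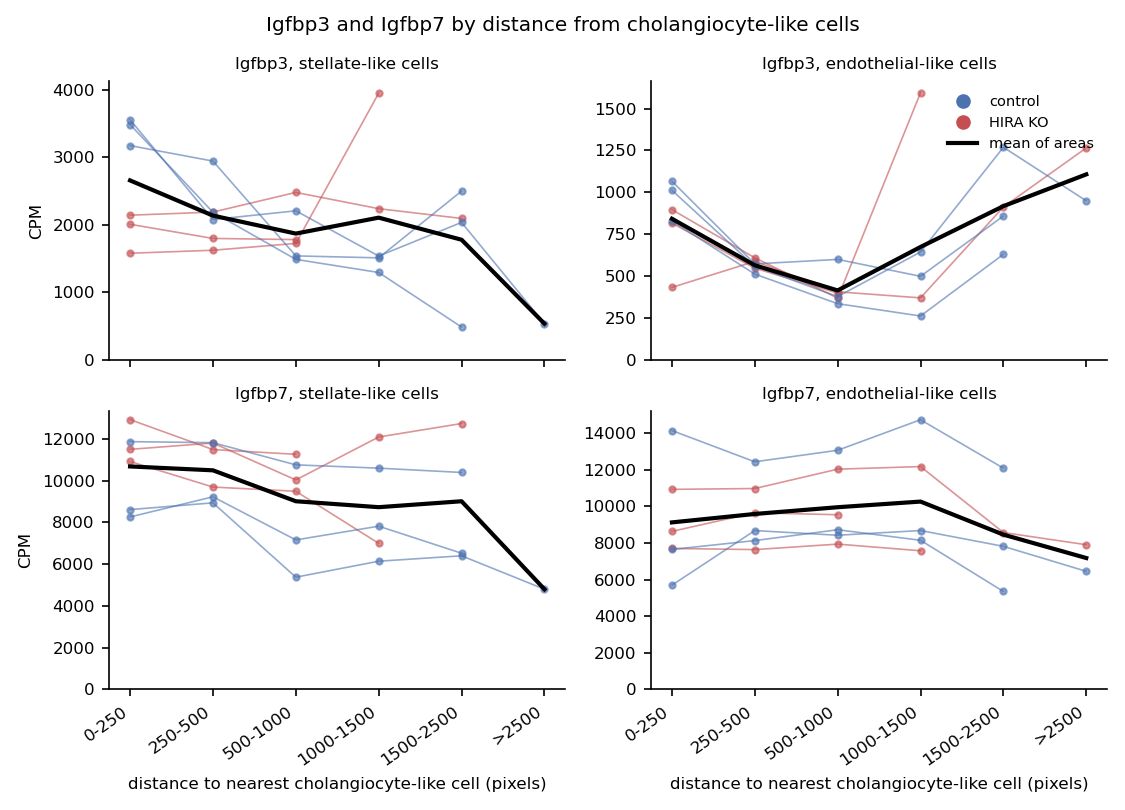
CPM of Igfbp3 (top) and Igfbp7 (bottom) in stellate-like (left) and endothelial-like cells (right) by distance to the nearest cholangiocyte-like cell in pixels; thin lines are tissue areas, the thick line their mean, and bins with under 20 cells of an area are not drawn. In stellate-like cells the 3 control areas start at 3171 to 3555 CPM of Igfbp3 in the nearest bin and the 3 HIRA KO areas at 1577 to 2140, a separation shared by 3.82% of the genes compared.

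In endothelial-like cells neither gene was called by distance from the ducts, and Igfbp3 did not change steadily with distance. It averaged 842 CPM within 250 pixels, 564 at 250 to 500 and 413 at 500 to 1000 pixels (6 areas). Farther out the mean was 673 CPM at 1000 to 1500 pixels (5 areas) and 917 at 1500 to 2500 pixels (4 areas). At 500 against 1500 pixels Igfbp3 was lower near by 0.51 ± 0.28 (edgeR, log2 −0.51, adjusted p = 0.738, 4 to 36 counts per side) and Igfbp7 differed by 0.23 ± 0.095 (adjusted p = 0.532). At 250 against 500 to 1000 pixels Igfbp3 was higher near in 6 of 6 areas, by 1.01 ± 0.27 with an adjusted p of 0.0573 by edgeR, and the direction thus turned with the distances compared. The genes called at 500 against 1500 pixels in these cells were the scavenger receptor genes Msr1 (log2 1.26) and Cd36 (0.80), higher near, 0.235% of 852 genes, and the receptor gene Kit (−0.99), lower near, 0.117%.

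Near and far from the Glul-led hepatocytes neither gene passed. In stellate-like cells of control area 1 and the 3 HIRA KO areas Igfbp3 differed by −0.25 ± 0.23 and Igfbp7 by −0.014 ± 0.15 (edgeR, adjusted p = 0.998 for both). Glul itself was the only gene called there (log2 1.36), 0.156% of 642 genes. In endothelial-like cells Igfbp7 differed by 0.013 ± 0.16 (edgeR, adjusted p = 0.990). Igfbp3 was higher near in 4 of 4 areas, with 23 to 31 counts near and 0 to 3 counts far, and its adjusted p was 0.538. These far cells number 61 to 114 per area, too few for a level of Igfbp3.

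The transcript table places each molecule over the nucleus, in the cytoplasm or at the membrane, and this place was not used to choose the genes. Igfbp7 lay over the nucleus less often in stellate-like than in endothelial-like cells. In endothelial-like cells 55.5% ± 2.85 of its transcripts were nuclear (SD, n = 6), near the 54.6% ± 2.43 of all genes in these cells. In stellate-like cells the share was 39.6% ± 3.74 against 50.2% ± 2.52 of all genes, and only 55 of the 963 genes counted there had a lower share. Hepatocyte-like cells held 29.7% ± 4.26 of their Igfbp7 over the nucleus against 45.6% ± 5.51 of all genes, and 26 of 998 genes were lower. Cholangiocyte-like cells lay between, with 44.4% ± 4.26 against 55.5% ± 3.11.

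Igfbp3 had the opposite order in the vessel and stromal cells. Its nuclear share was 47.2% ± 2.44 in stellate-like cells, 44.1% ± 3.22 in endothelial-like cells and 40.8% ± 2.97 in hepatocyte-like cells. The endothelial-like share rests on only 43 to 76 transcripts per area. Igfbp3 stood there at 1.59 times the negative probe, and in hepatocyte-like cells at 1.29 times, close to background. The part of background in these shares was not tested. Taken relative to all genes of the same cells, the share in stellate-like minus that in endothelial-like cells was −11.5 ± 3.27 percentage points for Igfbp7, below 0 in 6 of 6 areas, and 7.48 ± 3.39 for Igfbp3, above 0 in 6 of 6 areas. A two-sided exact sign-flip permutation test over the 6 areas gave p = 0.03125 for each, adjusted p = 0.03125 over the 2 tests, the smallest value that 6 areas allow. This comparison was chosen after the values were seen. In a section a transcript of a cell that lies above or below a nucleus is also counted as nuclear, and the part of overlapping neighbours was not tested.

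Between genotypes the nuclear share did not separate beyond the spread of the areas. In endothelial-like cells it was 54.5% ± 2.45 in control and 56.5% ± 3.37 in HIRA KO areas for Igfbp7, a difference of 1.97 percentage points (exact permutation p = 0.5). For Igfbp3 it was 43.98% ± 4.40 and 44.2% ± 2.53 (exact permutation p = 1). In stellate-like cells the shares were 37.9% ± 5.06 and 41.4% ± 0.720 for Igfbp7 and 45.6% ± 0.929 and 48.8% ± 2.54 for Igfbp3 (exact permutation p = 0.4 and 0.2). With 3 areas per group the smallest possible two-sided p is 0.1. Outside segmented cells lay 6.05% ± 1.38 of Igfbp3 transcripts in control and 6.58% ± 1.98 in HIRA KO areas, 5.27% ± 1.12 and 5.86% ± 0.858 of Igfbp7, and 6.29% ± 1.29 and 7.40% ± 1.18 of all genes (exact permutation p = 0.6, 0.6 and 0.3).

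**Figure D5:**
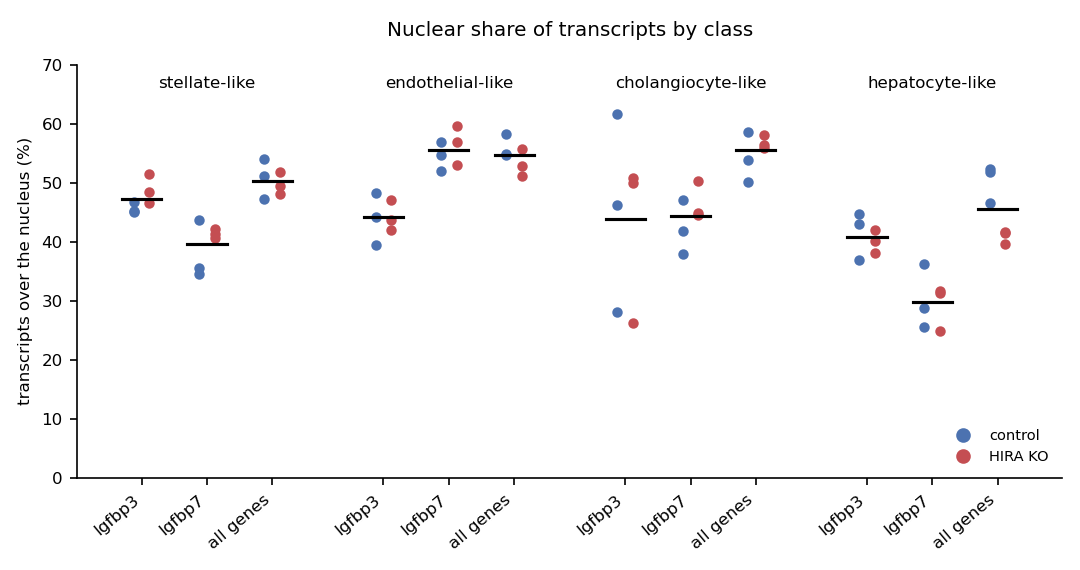
Percent of transcripts over the nucleus for Igfbp3, Igfbp7 and all genes in 4 cell classes; points are tissue areas and bars the mean of 6 areas. Igfbp7 lies at the level of all genes in endothelial-like cells (55.5% and 54.6%) and below it in stellate-like (39.6% and 50.2%) and hepatocyte-like cells (29.7% and 45.6%).

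The ligands, receptors and other binding proteins of the axis were tested between genotypes. The panel held 9 of them besides Igfbp3 and Igfbp7: the ligand genes Igf1, Igf2 and Ins1, the receptor genes Igf1r, Igf2r and Insr, the binding protein genes Igfbp5 and Igfbp6, and Gh, the pituitary hormone that drives Igf1 in hepatocytes. None of the 9 was called by edgeR in all cells together or in any of the 8 classes, nor by DESeq2. Without adjustment 1 of them had a p under 0.05 in T/NK-like cells, where 8 were tested and 49 of all 895 genes had one, and 0 in the other 8 sets of cells, where 43 of 906 to 113 of 998 genes had one. Over all genes edgeR called 0.2% of 998 in all cells, 0.401% in stellate-like cells, 0.1% in endothelial-like cells, 0.501% in Kupffer-like cells and 0.802% in hepatocyte-like cells (0.501% higher and 0.301% lower in HIRA KO), and 0 of 990 genes in cholangiocyte-like cells, where 61 had an unadjusted p under 0.05. The median log2 difference of the 9 genes was −0.015 in stellate-like and 0.10 in endothelial-like cells, against −0.0069 and −0.0048 over all genes tested.

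Igf1, the growth factor that Igfbp3 carries, was the highest of these 9 in hepatocyte-like cells, its known source, with 1728 ± 216 CPM. This was 3.66 times the negative probe, whereas Igf1 stood at 4.22 times in cholangiocyte-like and 3.98 times in Kupffer-like cells, where its CPM was lower. In hepatocyte-like cells Igf1 was 1932, 1491 and 1477 TMM-scaled CPM in control and 1995, 1699 and 1777 in HIRA KO areas. The fitted log2 difference was 0.16 ± 0.14 (edgeR, adjusted p = 0.709). The groups overlapped. In stellate-like cells Igf1 was 1105, 915 and 946 against 1497, 1055 and 1112, with 0.30 ± 0.17 (edgeR, adjusted p = 0.674). Igf2, the growth factor of fetal liver, was 917, 516 and 905 in control and 616, 643 and 664 in HIRA KO areas in stellate-like cells, with −0.33 ± 0.19 (edgeR, adjusted p = 0.702).

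The receptors were low. Igf1r, through which Igf1 signals, stood at 635 ± 84.0 CPM in stellate-like and 647 ± 26.2 CPM in endothelial-like cells, 1.66 and 1.63 times the negative probe, and Insr, the insulin receptor gene, at 497 ± 45.1 and 603 ± 80.9 CPM, 1.30 and 1.52 times it. Igf2r, which clears Igf2, was at 690 ± 57.0 and 597 ± 87.1 CPM. Igfbp6, a binding protein that prefers Igf2, was at 690 ± 123 and 895 ± 78.7 CPM, and Igfbp5 lay below the negative probe in both classes (0.78 and 0.74 times). Ins1, a hormone gene of the pancreas, was at 666 ± 88.9 CPM in stellate-like and 667 ± 164 CPM in endothelial-like cells, so levels of this height are also given by a gene not known to be made in these cells.

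Of 3 further lists, none held a gene called by edgeR in any of the 9 sets of cells. The list of Igfbp7 partners and vessel genes (8 on the panel, among them Cd93, Col4a1, Kdr and Vegfa) had 0 to 2 genes with an unadjusted p under 0.05 per set, the transforming growth factor beta list 0 to 3 of 10 and the senescence list, with Cdkn1a, Il6 and Timp1, 0 to 1 of 12. The highest counts of the vessel and transforming growth factor lists, 2 and 3, were both in stellate-like cells, where 83 of all 998 genes had an unadjusted p under 0.05.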

How the data were processed

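CosMx imaging decoded transcripts of a 1000-plex mouse panel in 5 µm FFPE sections of the median lobe. The authors deposited raw counts per target and segmented cell, per the file headers with cell area and position in pixels, and a table of single transcripts whose totals matched the count table (0 differences). Decoding and segmentation software versions are not given in the sources used here. Tables of cell outlines and field positions were not used. Igfbp3, Igfbp7 and the gene lists were chosen with earlier results of these data known.

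Cells under 20 counts or above 5 times the geometric mean area were left out, following the study's methods. Pearson residuals (theta 100) of the panel without the insulin-like growth factor axis gave 30 components, a graph of 20 neighbours and Leiden clusters at resolution 1.6. A cluster took a name when at least 3 markers of a class were raised and that class led its 10 leading genes. No doublet caller was run, since cells of a section overlap. Counts were summed per class and area, in classes of at least 100 cells per area for tests, which used edgeR 4.0.16 (TMM, filterByExpr, Benjamini-Hochberg over all genes at 0.05) in R 4.3.3, and DESeq2 1.42.0 as an alternative. The scripts for the genotype and near-far fits were tested on simulated counts. P-values rest on the spread between tissue areas, which edgeR in part pools over all genes of a fit. Intervals of counts cover counting error only. Genes named are Igfbp3, Igfbp7, the insulin-like growth factor axis, the 5 genes most like each, called genes of other lists or, in near-far tests, up to 5 per direction of one sign in every area, and class markers.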

Additional observations from a re-analysis of the deposited data

How the results depend on the processing

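The tests have 3 areas per group, or 4 areas by distance, and Igfbp3 outside mesenchymal cells rests on few counts, so an absent call there says little. Of the recomputed values, 314 of 365 alternatives kept direction and side of the threshold, or moved by less than the spread between areas. The kept ones include the counts of called genes of the insulin-like growth factor axis, which were 0 under every setting. The cause of the following exceptions was not tested.

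Per square pixel of cell area, which also moves with the higher transcript density of HIRA KO areas, the genotype differences were 0.47 (Igfbp3) and 1.02 (Igfbp7) in stellate-like, 0.51 and 0.46 in endothelial-like cells and −0.29 for Igfbp3 in cholangiocyte-like cells. With classes by marker score Igfbp3 differed by 0.16 in stellate-like and 0.024 in cholangiocyte-like cells. Leaving out 1 area gave −0.20 to 0.052 and 0.29 to 0.71 for Igfbp3 and Igfbp7 in stellate-like, −0.15 to 0.18 and −0.16 to 0.28 in endothelial-like, and −0.71 to −0.41 and 0.21 to 0.81 in cholangiocyte-like cells. No gene of the insulin-like growth factor axis was called under any alternative (0 to 0 without an area).

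Near minus far from ducts in stellate-like cells became a call for Igfbp3 with cells of at least 50 counts (0.84) and for Igfbp7 with quartiles (0.31), and without 1 area ranged from 0.37 to 0.70 and 0.11 to 0.33. In endothelial-like cells it turned to 0.033 (Igfbp3) and −0.045 (Igfbp7) with quartiles and to 1.01 and −0.13 at 250 against 500 to 1000 pixels, and without 1 area ranged from −0.64 to −0.37 and 0.17 to 0.33. The interaction there turned to 0.28 and −0.081 with quartiles. Around the Glul-led hepatocytes Igfbp7 in endothelial-like cells turned to −0.032 with DESeq2, −0.0019 with library size only, −0.030 without a filter, −0.036 with clusters built on all genes, −0.089 at 250 against 500 to 1000 pixels and −0.032 to 0.036 without 1 area. Its interaction turned to −0.15 with quartiles and −0.21 at 250 pixels. In stellate-like cells Igfbp7 turned to 0.10 within 300 pixels, 0.014 with quartiles, 0.0068 with clusters on all genes, 0.037 with cells of at least 50 counts and −0.086 to 0.16 without 1 area, and its interaction to 0.058, 0.15 and 0.35 within 300 pixels, with quartiles and at 250 pixels. Igfbp3 ranged from 1.0 to 1.56 in endothelial-like and −0.32 to −0.11 in stellate-like cells without 1 area. The interactions at 300 pixels, with quartiles and at 250 pixels were added after the data were seen.

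The genotype difference of the nuclear share turned to −0.52 for Igfbp3 with cells of at least 50 counts and to −0.91 for Igfbp7 over all cells, and without 1 area ranged from −2.02 to 2.38 and 0.39 to 3.74. The share outside cells ranged from −0.26 to 1.66 for Igfbp3 and −0.0057 to 1.11 for Igfbp7. Thinning to 50 counts lowered the share of cells with Igfbp3 to 8.45%, 2.37% and 3.41% in stellate-like, endothelial-like and cholangiocyte-like cells and with Igfbp7 to 37.8%, 35.8% and 21.7%, and thinning to 100 gave 14.6% for Igfbp3 in stellate-like cells. Of the 5 genes most like Igfbp3, 1 stayed with Spearman's rho and 2 with cluster sums, and for Igfbp7 2 and 3. With the slide row as a block the genotype differences of both genes kept their direction in stellate-like, endothelial-like and cholangiocyte-like cells.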
